A study of Mus musculus with 12 samples.

Results

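Expression of 10 osteoclast and cell fusion genes was examined in mouse bone marrow macrophages after neutralization of integrin α5 (ITGA5). The genes were taken by name, with earlier results of these data known, and are Tnfrsf11a, Nfatc1, Trem2, Tyrobp, Oscar, Dcstamp, Ocstamp, Atp6v0d2, Acp5 and Ctsk. All 10 were present among the 54532 genes measured by RNA-seq. Macrophages were derived from marrow of wild-type C57BL/6J mice aged 2 to 3 months. The labels name the tibia as its source, and the methods of the study name femur and tibia. They were grown in CSF-1, the cytokine that macrophages depend on, first at 12 ng/ml for 24 h and then at 120 ng/ml for 48 h. Cells were passaged onto uncoated plates or onto plates coated overnight with fibronectin (10 µg/ml), a matrix protein that ITGA5 binds. On each surface they received control IgG or a neutralizing anti-ITGA5 antibody, both at 10 µg/ml for 24 h. Each of the 4 combinations of antibody and surface was represented by 3 libraries. The labels name no RANKL, the cytokine that turns such cells into osteoclasts, in any group. The labels do not say whether the 3 libraries of a group came from separate mice. The study describes the replicates of its RNA-seq groups as biologically independent, and p-values measure the spread between these samples.

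Osteoclasts are bone-resorbing giant cells that form when precursors of the macrophage lineage fuse. The precursor needs CSF-1 and RANKL. RANKL binds the receptor RANK, encoded by Tnfrsf11a, and signals through TRAF6 to NF-kB and MAP kinases. A co-stimulatory signal comes from receptors such as TREM2 and OSCAR, which have no signaling tail and pair with adaptors that carry an ITAM motif, TYROBP (DAP12) and the Fc receptor γ chain. Both inputs lead to NFATc1, the transcription factor that directs the osteoclast program. Its targets include the fusion proteins DC-STAMP and OC-STAMP, the V-ATPase subunit d2 encoded by Atp6v0d2, the tartrate-resistant acid phosphatase encoded by Acp5 and the collagen-degrading protease cathepsin K encoded by Ctsk. Macrophages outside bone also express several of these genes, and TREM2 with TYROBP is a sensor of lipids and cell debris in tissue macrophages.

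The libraries held 12954342 to 22075432 counts on genes, with a median of 18023464.5, and 27574 genes had a count in at least 1 library. The 3 pairs of libraries in anti-ITGA5 without fibronectin stood further apart, with chi-square values per gene from 10.4 to 23.0, than pairs in the other groups, from 2.65 to 7.45. That group also held the shallowest library, replicate 2, so the antibody results on uncoated plates were also computed without it, a choice made for the gene lists after seeing the data. For Acp5, Ctsk, Atp6v0d2, Trem2 and Tyrobp this left the direction and the call as they were, and the values of Tnfrsf11a and Nfatc1 are given both ways. The labelled cell type was checked against marker genes. The 8 macrophage markers were all detected, and their summed level in FPKM (fragments scaled to gene length and library depth) was 8977 to 9822 in IgG and 6129 to 7517 in anti-ITGA5 on uncoated plates, and 9558 to 9759 and 7336 to 7506 on fibronectin. The sum weighs abundant genes most. Singly, 4 of the 8 markers fell and Cd14 rose on each surface, and Csf1r passed on neither (shares of all genes are given below). RANKL itself (Tnfsf11) was at 0 counts in all 12 libraries, as was Calcr, the calcitonin receptor of mature osteoclasts. Summed markers of osteoblasts and marrow stroma stayed between 0.50 and 1.14 FPKM, and those of fibroblasts between 0.172 and 0.378 FPKM. In bulk RNA, fewer cells of a type and less RNA per cell cannot be told apart.

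The 10 genes spanned the range from among the most abundant RNAs of the cells to the limit of detection. Ranked by mean FPKM over the 12 libraries among the 27574 genes with a count, Tyrobp was at place 32, Trem2 at 363, Tnfrsf11a at 2334, Nfatc1 at 5876 and Atp6v0d2 at 6286. Ctsk followed at place 8707 and Acp5 at 9712. The fusion genes Dcstamp and Ocstamp were at places 15616 and 17274, with at most 15 and 13 counts in a library. Oscar was at place 21327, with 10 counts in all over the 12 libraries. The receptor and adaptor genes of the pathway were therefore present at readily measured levels, whereas the fusion genes and Oscar were at a few counts per library.

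**Figure D1:**
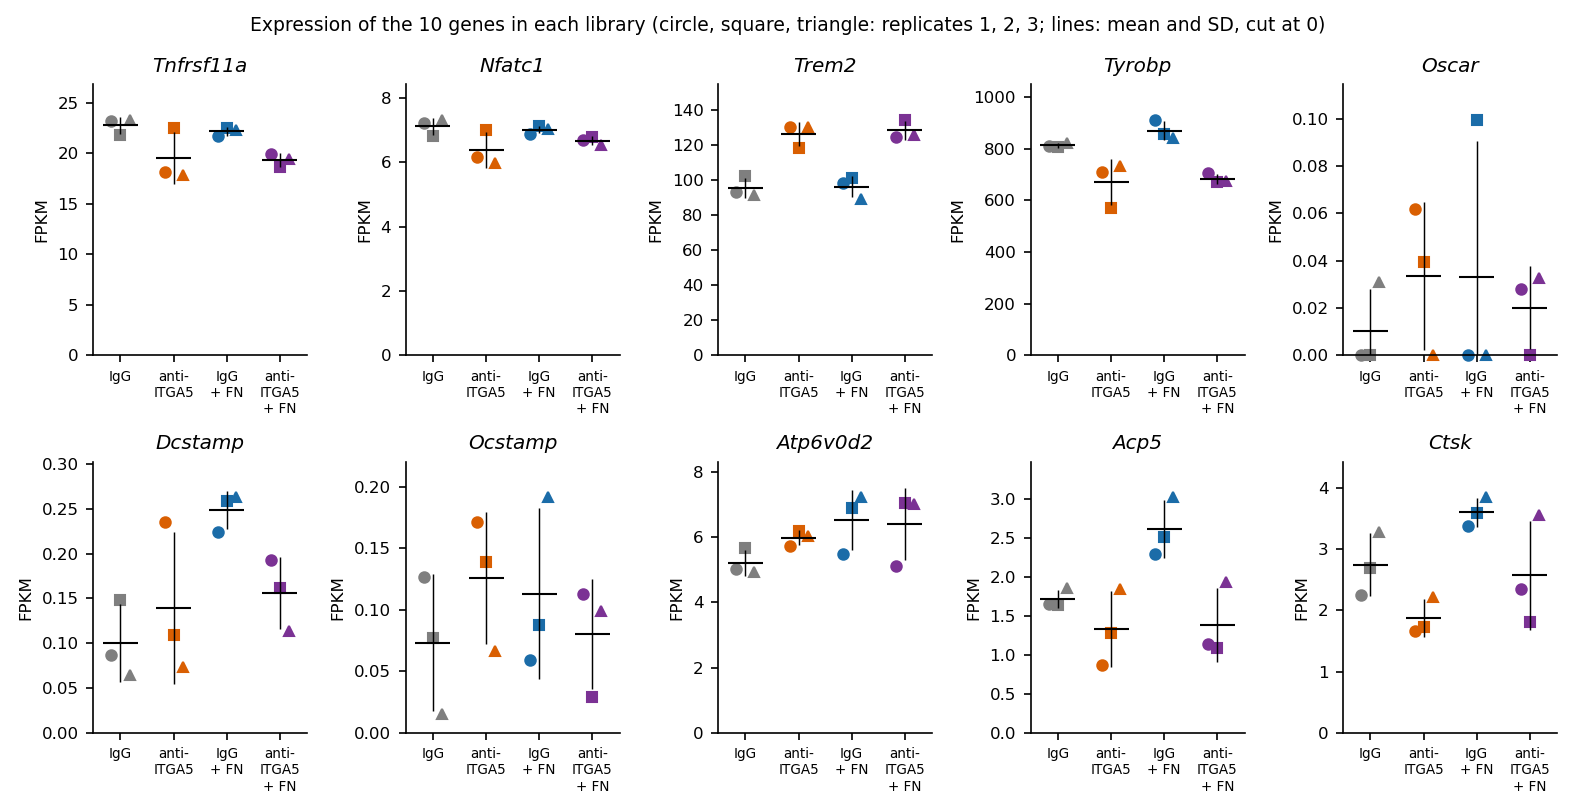
FPKM (y axis, linear, from 0) of the 10 genes in each of the 12 libraries, by antibody and coating (x axis; FN, fibronectin); horizontal lines are group means and vertical lines the SD, cut at 0, with n = 3 per group. Both anti-ITGA5 groups lie above both IgG groups for Trem2 and below them for Tyrobp, and IgG with fibronectin is the highest group for Acp5, Ctsk and Dcstamp.

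Promoter sequences are shown for the members whose levels are described most closely and for which RefSeq (GRCm38.p6) gave a window from 250 bases before to 50 bases after a start site. Windows of 5 of the 10 genes were used, 7 windows in all. Windows of Dcstamp, Ocstamp, Nfatc1, Atp6v0d2 and Tyrobp were not used here. Each window was searched on both strands for 4 short motifs. CACATG is an E-box that MITF can bind, TGANTCA is the AP-1 site and the same on either strand, GGAAA is the core of NFAT sites, and GAGGAA is the core of PU.1 sites. Acp5 had 3 windows, and the one printed was chosen because it alone of the 3 held the E-box, so that match is a description of the choice. Sequences run 5′ to 3′ on the gene's strand, with motif matches in capitals.
Acp5, chr9:22130549-22130848, minus strand: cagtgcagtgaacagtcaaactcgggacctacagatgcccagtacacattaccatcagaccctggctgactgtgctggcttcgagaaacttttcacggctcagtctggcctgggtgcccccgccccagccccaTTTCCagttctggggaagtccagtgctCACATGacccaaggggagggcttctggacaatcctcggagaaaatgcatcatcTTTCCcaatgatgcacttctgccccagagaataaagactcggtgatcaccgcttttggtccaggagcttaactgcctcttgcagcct
Ctsk, chr3:95498960-95499259, plus strand: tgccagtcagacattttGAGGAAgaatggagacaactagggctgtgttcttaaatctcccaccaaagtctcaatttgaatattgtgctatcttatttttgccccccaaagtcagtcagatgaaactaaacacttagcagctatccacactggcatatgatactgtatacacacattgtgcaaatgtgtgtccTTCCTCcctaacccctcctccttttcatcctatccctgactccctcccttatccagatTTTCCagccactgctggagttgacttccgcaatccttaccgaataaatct
Trem2, chr17:48346151-48346450, plus strand: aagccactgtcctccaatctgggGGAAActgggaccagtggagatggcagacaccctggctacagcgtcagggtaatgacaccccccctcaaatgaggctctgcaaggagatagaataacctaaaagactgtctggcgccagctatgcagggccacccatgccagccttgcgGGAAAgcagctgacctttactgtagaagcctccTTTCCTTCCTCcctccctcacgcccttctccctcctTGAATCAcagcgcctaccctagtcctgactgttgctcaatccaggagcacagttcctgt
Tnfrsf11a, chr1:105780473-105780772, plus strand: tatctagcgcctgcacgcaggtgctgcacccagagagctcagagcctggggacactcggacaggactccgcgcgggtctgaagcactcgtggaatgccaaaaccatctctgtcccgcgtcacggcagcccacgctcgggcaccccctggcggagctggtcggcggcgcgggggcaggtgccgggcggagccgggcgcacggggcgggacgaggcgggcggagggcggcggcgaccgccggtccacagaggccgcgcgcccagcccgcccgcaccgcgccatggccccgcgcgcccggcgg
The Acp5 window held 1 E-box, 90 bases before the start, and 2 NFAT cores. The Ctsk window held 2 PU.1 cores and 1 NFAT core, and the Trem2 window held 3 NFAT cores, 1 PU.1 core that directly follows one of them, and 1 AP-1 site. The Tnfrsf11a window held none of the 4 motifs. The window of Oscar, which is not printed because the gene had 10 counts in all, held 1 E-box, 6 bases before the start, 4 NFAT cores and 2 PU.1 cores. Of all 32851 windows in the table, 14.2% held the E-box, 7.81% the AP-1 site, 61.3% the NFAT core and 28.3% the PU.1 core. A match in letters is no evidence of binding.

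The first question was how ITGA5 neutralization acted on these genes, on uncoated plates and on fibronectin. On both surfaces Trem2 rose and its adaptor Tyrobp fell. On fibronectin Acp5 and Tnfrsf11a fell as well, and Acp5 showed the largest change of the members that passed the test, with a level 47.4% below IgG. Without fibronectin, 1 member fell and 1 rose among the 7 with enough counts to be tested, where 9.79% and 11.0% of all 12924 genes tested fell and rose (20.8% in either direction). With fibronectin, 3 members fell and 1 rose among 8 tested, where 13.2% and 14.4% of all 12916 genes fell and rose (27.6% in either direction). Calls are from edgeR's quasi-likelihood test at a Benjamini-Hochberg adjusted p of 0.05 or less. The number lower without fibronectin depended on the fit. Leaving out each library in turn gave 0 to 3 members lower there, beside 627 to 1842 of all genes, and each limma fit gave 0 members. Dcstamp entered the test on fibronectin only through IgG with fibronectin, the group in which it was highest, and Ocstamp and Oscar were too low to be tested in any comparison. The antibody comparisons without and with fibronectin share no library.

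**Figure D2:**
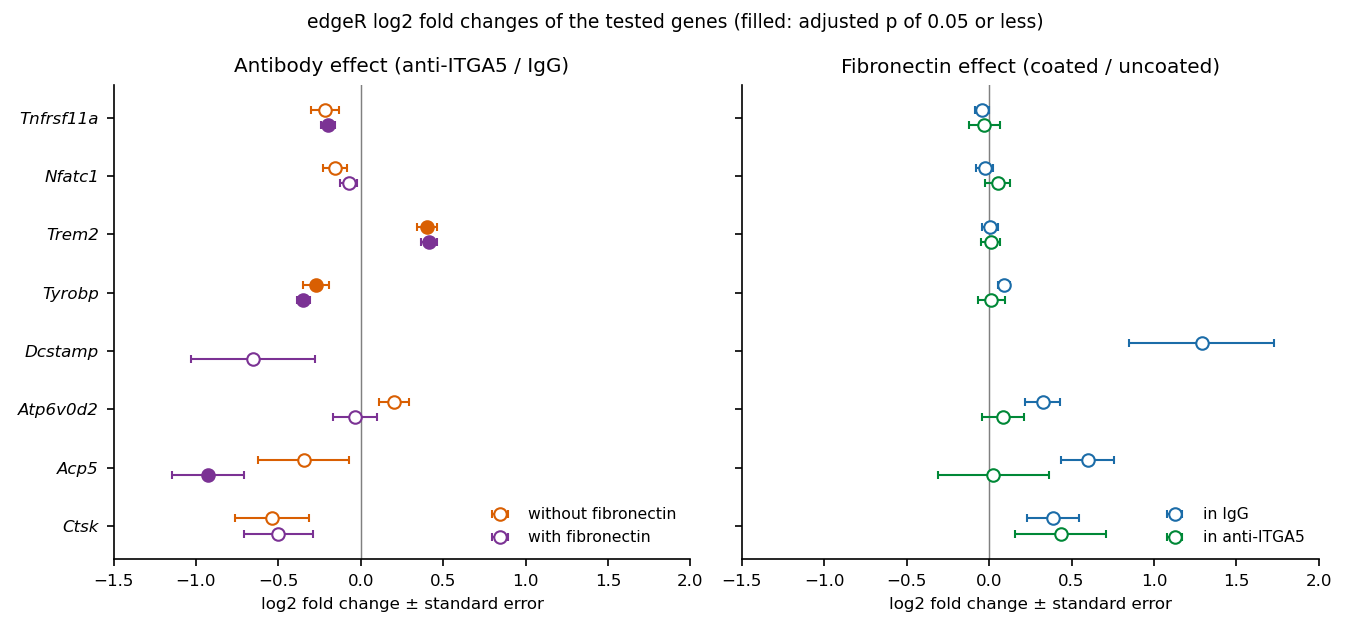
Fitted log2 fold changes of edgeR (x axis, linear) with standard errors for the members with enough counts to be tested (y axis), for the antibody on each surface (left) and for the coating under each antibody (right); filled circles have an adjusted p of 0.05 or less. Trem2 is filled and to the right of 0 and Tyrobp filled and to the left of 0 on both surfaces, Acp5 and Tnfrsf11a are filled only with fibronectin, and no circle is filled for the coating.

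Tnfrsf11a (ENSMUSG00000026321, chr1:105780718-105847981, plus strand, GRCm38) encodes RANK, the receptor through which osteoclast formation starts. With fibronectin its level was 21.7, 22.5 and 22.3 FPKM in the 3 IgG libraries and 19.9, 18.6 and 19.5 FPKM upon ITGA5 neutralization. The lowest IgG library lay above the highest anti-ITGA5 library. The level fell by 0.20 on the log2 scale (SE 0.0436, adjusted p = 0.00471 by edgeR), a difference of -12.9%. Without fibronectin the level was 23.2, 21.8 and 23.3 FPKM in IgG and 18.2, 22.5 and 17.9 FPKM in anti-ITGA5, and the groups overlapped through anti-ITGA5 replicate 2. The log2 fold change there was -0.22 (SE 0.0878, adjusted p = 0.109), and -0.34 (adjusted p = 8.4e-05) without that library. The call on fibronectin was lost when all 12 libraries were fitted together (adjusted p = 0.0576), whereas on uncoated plates Tnfrsf11a passed in that fit (adjusted p = 0.0419). It also passed there when every gene with at least 1 count was tested (-0.23, adjusted p = 0.0203).

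Nfatc1 encodes the transcription factor that drives the osteoclast program. It was at 6.82 to 7.32 FPKM in IgG and 5.98 to 7.004 FPKM in anti-ITGA5 without fibronectin, and at 6.89 to 7.13 and 6.53 to 6.80 FPKM with it. The groups overlapped on uncoated plates and were separate on fibronectin, by a small margin. Its log2 fold change was -0.16 (SE 0.0737, adjusted p = 0.169) and -0.07 (SE 0.0518, adjusted p = 0.326), neither past the test. Without anti-ITGA5 replicate 2, the value on uncoated plates was -0.23 (adjusted p = 0.00884). Nfatc1 and Tnfrsf11a were both nearest to IgG levels in that same library.

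Trem2 (ENSMUSG00000023992, chr17:48346401-48354147, plus strand) encodes the lipid-sensing receptor that delivers the ITAM co-stimulus. It was at 93.0, 101.9 and 91.6 FPKM in IgG and at 130.1, 117.9 and 129.8 FPKM in anti-ITGA5 without fibronectin. With fibronectin it was at 97.9, 101.1 and 89.3 FPKM in IgG and at 124.6, 134.2 and 125.8 FPKM in anti-ITGA5. Every anti-ITGA5 library was above every IgG library, on either surface. The level rose by 0.40 on the log2 scale without fibronectin (SE 0.0601, adjusted p = 0.000995) and by 0.41 with it (SE 0.0495, adjusted p = 6.8e-05), or by 32.3% and 33.2%. The call held in each of the 16 alternatives run for either surface, with log2 fold changes from 0.36 to 0.45. Trem2 was the only member that passed as higher in an antibody comparison.

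Tyrobp (ENSMUSG00000030579, chr7:30413760-30417585, plus strand) encodes DAP12, the ITAM adaptor through which TREM2 signals and which stabilizes it at the surface. Its level was 810.6, 805.0 and 821.7 FPKM in IgG and 709.9, 570.8 and 732.5 FPKM in anti-ITGA5 without fibronectin. With fibronectin it was 911.4, 855.1 and 841.7 FPKM in IgG and 704.9, 669.9 and 675.9 FPKM in anti-ITGA5. The groups were separate on both surfaces, in the opposite direction to Trem2. Tyrobp fell by 0.27 on the log2 scale without fibronectin (SE 0.0785, adjusted p = 0.0328) and by 0.35 with it (SE 0.0415, adjusted p = 6.7e-05), or by 17.1% and 21.5%. On fibronectin the call held in each of the 16 alternatives. On uncoated plates it did not: the adjusted p was 0.122, 0.101 and 0.124 without IgG replicate 1, 2 or 3, 0.0557 without anti-ITGA5 replicate 1, and 0.112 to 0.427 with limma on log2 FPKM. Without the low anti-ITGA5 replicate 2 the value was -0.17, with an adjusted p of 0.0033.

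Within a library, reads of Trem2 can be set against reads of Tyrobp without any scaling between libraries. There were 82.7 to 93.9 Trem2 counts per 100 Tyrobp counts in IgG without fibronectin (mean 87.2 ± 5.91, SD, n = 3) and 131 to 153 in anti-ITGA5 (140 ± 11.5). With fibronectin the values were 78.7 to 87.7 in IgG (82.0 ± 4.94) and 131 to 149 in anti-ITGA5 (139 ± 8.80). All 6 anti-ITGA5 libraries lay above all 6 IgG libraries, and the coating left the ratio within the spread of replicates. The ratio shows that the genes changed unequally and restates the tests above. The distance between the levels of these genes depends on the gene model. The deposited length of Trem2 is 4946 bases, which includes a transcript with retained introns, against 1088 bases for its principal coding transcript, whereas Tyrobp has 667 and 564 bases. In IgG without fibronectin, mean levels were 95.5 ± 5.60 FPKM for Trem2 and 812 ± 8.52 FPKM for Tyrobp with the deposited lengths, and 434 ± 25.5 and 961 ± 10.1 with the principal lengths.

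**Figure D3:**
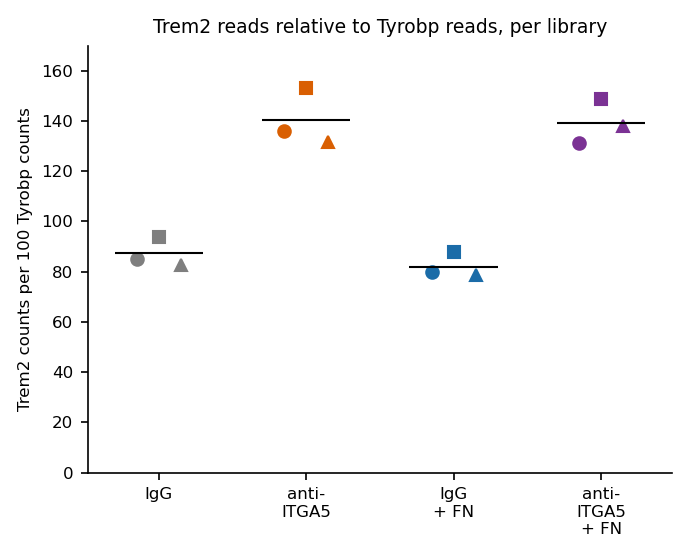
Trem2 counts per 100 Tyrobp counts (y axis, linear, from 0) in each library, by antibody and coating (x axis; FN, fibronectin); lines are group means, n = 3 per group. The 6 anti-ITGA5 libraries lie between 131 and 153, above the 6 IgG libraries at 78.7 to 93.9.

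Oscar, a collagen receptor that pairs with the Fc receptor γ chain, was barely present. It had 0, 0 and 1 counts in IgG and 2, 1 and 0 in anti-ITGA5 without fibronectin, and 0, 4 and 0 in IgG and 1, 0 and 1 in anti-ITGA5 with fibronectin. No difference was detectable at this depth. The adaptor it uses was abundant: Fcer1g was at 636 ± 7.42 and 601 ± 44.1 FPKM in IgG and anti-ITGA5 without fibronectin, with a log2 fold change of -0.08 (SE 0.0571, adjusted p = 0.384). With fibronectin it was at 625 ± 18.1 and 635 ± 35.2 FPKM, with a log2 fold change of 0.02 (SE 0.0452, adjusted p = 0.757).

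The fusion genes were close to the floor of detection. Dcstamp encodes DC-STAMP, the membrane protein without which osteoclasts and foreign body giant cells stay mononuclear. It had 4, 7 and 3 counts in IgG and 11, 4 and 4 in anti-ITGA5 without fibronectin, and 11, 15 and 13 in IgG and 10, 8 and 5 in anti-ITGA5 with fibronectin. In FPKM, IgG with fibronectin was at 0.224 to 0.263 and did not overlap with anti-ITGA5 on the same surface, at 0.114 to 0.193. The fitted log2 fold change on fibronectin was -0.65 (SE 0.375). This is a description, because Dcstamp had enough counts only in IgG with fibronectin. Ocstamp, its partner in fusion, had 1 to 8 and 5 to 11 counts in IgG and anti-ITGA5 without fibronectin, and 4 to 13 and 2 to 8 with it, and the groups overlapped throughout.

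Atp6v0d2 encodes the d2 subunit of the proton pump, which is needed for fusion of osteoclast precursors. Without fibronectin it was at 5.03, 5.66 and 4.91 FPKM in IgG and 5.73, 6.18 and 6.03 FPKM in anti-ITGA5. The groups did not overlap, and the log2 fold change of 0.20 (SE 0.091) did not pass the test (adjusted p = 0.144). With fibronectin the levels were 5.48, 6.88 and 7.23 FPKM in IgG and 5.12, 7.06 and 7.01 FPKM in anti-ITGA5, which overlapped. The log2 fold change there was -0.04 (SE 0.133, adjusted p = 0.871), and its sign turned without IgG replicate 3 (0.03) or anti-ITGA5 replicate 1 (0.11).

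Acp5 (ENSMUSG00000001348, chr9:22126727-22135711, minus strand) encodes TRAP, the acid phosphatase used to stain osteoclasts and also made by some macrophages. With fibronectin it had 86, 111 and 114 counts in IgG and 45, 41 and 65 upon ITGA5 neutralization, or 2.30, 2.51 and 3.03 FPKM against 1.14, 1.09 and 1.94 FPKM. The groups did not overlap. Acp5 fell by 0.93 on the log2 scale (SE 0.219, adjusted p = 0.00736). Without each library in turn the value ranged from -1.23 to -0.78, and each of these fits passed. The call was lost only with limma on log2(FPKM + 1) over all genes with a count (-0.61, adjusted p = 0.0926). On the same scale, with genes filtered at a mean of 0.5 FPKM, the same -0.61 passed (adjusted p = 0.0287). Without fibronectin Acp5 had 58, 59 and 66 counts in IgG and 31, 36 and 77 in anti-ITGA5, or 1.65, 1.64 and 1.85 FPKM against 0.870, 1.29 and 1.85 FPKM. Here the groups overlapped because anti-ITGA5 replicate 3 was at the level of IgG. The log2 fold change was -0.35 (SE 0.276, adjusted p = 0.421), -0.68 (adjusted p = 0.125) without that library and -0.11 (adjusted p = 0.825) without replicate 1. A gene on the other strand, 6530413G14Rik, overlaps Acp5 and had 2 counts in all.

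Ctsk (ENSMUSG00000028111, chr3:95499256-95509362, plus strand) encodes cathepsin K, the protease that degrades bone collagen. It had 59, 72 and 87 counts in IgG and 44, 36 and 69 in anti-ITGA5 without fibronectin, or 2.26, 2.69 and 3.28 FPKM against 1.66, 1.73 and 2.22 FPKM. With fibronectin it had 94, 118 and 108 counts in IgG and 69, 51 and 89 in anti-ITGA5, or 3.38, 3.58 and 3.85 FPKM against 2.35, 1.81 and 3.56 FPKM. The groups were separate on uncoated plates and overlapped on fibronectin through anti-ITGA5 replicate 3. The log2 fold changes by edgeR were -0.54 (SE 0.225, adjusted p = 0.118) and -0.50 (SE 0.208, adjusted p = 0.094), and neither passed the test. On fibronectin the same -0.50 passed when every gene with at least 1 count was tested (adjusted p = 0.0215), and without anti-ITGA5 replicate 3 the value was -0.79 (adjusted p = 0.00343). With the replicate block it was -0.52 (adjusted p = 0.0161), although the labels do not pair the numbers. In FPKM, replicate 3 was the highest library of each of the 4 groups for Ctsk. It was also the highest of each group for Acp5.

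Counted by FPKM alone, 4 members had groups that did not overlap without fibronectin: Ctsk and Tyrobp lower, and Trem2 and Atp6v0d2 higher upon ITGA5 neutralization. Of all genes tested on that surface, 38.2% had such groups, 19.4% lower and 18.7% higher. With fibronectin, Acp5, Nfatc1, Tnfrsf11a and Tyrobp were lower and Trem2 was higher without overlap, or 5 members. Dcstamp is left out of this count, since it was tested there only through its highest group. There the background was 42.4% of genes, 20.6% lower and 21.7% higher.

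The second question was whether fibronectin alone changed these genes. In IgG, no member passed edgeR's quasi-likelihood test, and 4 of the 7 members other than Dcstamp had an unadjusted p under 0.05, each in the direction of higher levels with fibronectin, where 1266 of all 12925 genes tested had such a p. Dcstamp was tested only because of its counts in IgG with fibronectin, its highest group, so its values are a description. No member passed with DESeq2 or limma either. Of all genes tested, 0.449% passed, 0.124% as lower and 0.325% as higher. The log2 fold changes of these 4 were 0.60 for Acp5 (SE 0.160, adjusted p = 0.134), 0.32 for Atp6v0d2 (SE 0.108, adjusted p = 0.278), 0.39 for Ctsk (SE 0.159, adjusted p = 0.426) and 0.09 for Tyrobp (SE 0.0369, adjusted p = 0.413). The fitted value of Dcstamp was 1.29 (SE 0.442). In FPKM, the IgG libraries with fibronectin lay above those without for Acp5 (2.30 to 3.03 against 1.64 to 1.85), Ctsk (3.38 to 3.85 against 2.26 to 3.28), Dcstamp (0.224 to 0.263 against 0.0642 to 0.149) and Tyrobp (842 to 911 against 805 to 822). Groups that did not overlap were found in 15.4% of all genes, 6.61% lower and 8.80% higher. For Acp5 the call depended on the genes tested, with an adjusted p of 0.0308 when every gene with at least 1 count was kept. With the replicate block, Acp5 (adjusted p = 0.0191 by edgeR) and Atp6v0d2 (adjusted p = 0.0334) passed as higher, although the labels do not pair the numbers. Trem2, Tnfrsf11a and Nfatc1 had log2 fold changes of 0.0035, -0.04 and -0.03.

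In anti-ITGA5, no member and none of the 12863 genes tested passed edgeR's test for the coating, so the background was 0%, with 461 genes at an unadjusted p under 0.05. DESeq2 passed 2 genes as lower and 3 as higher. No member had an unadjusted p under 0.05, and no member passed with DESeq2 or limma. The log2 fold changes were 0.03 for Acp5 (SE 0.337) and 0.43 for Ctsk (SE 0.277), and those of the other 5 members tested lay between -0.03 and 0.08. No member had groups that did not overlap, against 9.74% of all genes, 3.95% lower and 5.79% higher. The coating and antibody comparisons use the same libraries, so the values of Acp5 are given side by side by group: 1.72 ± 0.119 FPKM in IgG and 1.34 ± 0.491 FPKM in anti-ITGA5 without fibronectin, and 2.61 ± 0.374 and 1.39 ± 0.476 FPKM with it (SD, n = 3). IgG with fibronectin was separate from the next group in that order, and the other 3 groups overlapped. For Ctsk the order was IgG with fibronectin (3.60 ± 0.238 FPKM), IgG without (2.74 ± 0.514), anti-ITGA5 with (2.57 ± 0.895) and anti-ITGA5 without (1.87 ± 0.308), and again only the first step was free of overlap.

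Whether the antibody acted differently on uncoated plates and on fibronectin was tested as an interaction over all 12 libraries. No member passed edgeR's quasi-likelihood test (adjusted p = 0.9997 for each of the 8 tested), none had an unadjusted p under 0.05, and no member passed with DESeq2 or limma. Of all 13455 genes, 0.0223% passed. The interaction of Acp5 was -0.59 on the log2 scale (SE 0.366). That of Dcstamp, again a description, was -1.12 (SE 0.682). The interaction of Trem2 was 0.0063 (SE 0.0821) and that of Tyrobp was -0.08 (SE 0.0955). The calls of Acp5 and Tnfrsf11a with fibronectin and not without it are therefore not shown to differ between the surfaces.

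The members did not vary as one group over the 12 libraries. As a measure of likeness, the log2 CPM (counts scaled to library depth) of each gene were centred on their mean, and the root mean square difference between 2 genes was taken over the 12 libraries. The closest pair of members was Nfatc1 and Tnfrsf11a (0.0683), followed among the low genes by Acp5 and Ctsk (0.230). Trem2 was far from Tyrobp (0.372) and from Acp5 (0.658). Of the 11686 genes that reached 10 counts in each library, those nearest to Trem2 were Pih1d1 (0.0447) and Tubgcp2 (0.0451), and those nearest to Tyrobp were Aamp (0.0402) and Os9 (0.0429). Nearest to Tnfrsf11a were Cers6 (0.0356) and Notch2 (0.0475). Nearest to Acp5 were Gab1 (0.214) and Gpc1 (0.225), where the median difference from all genes was 0.508. These distances are descriptions, since all genes share the libraries and their depth.

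The remaining genes of the pathway were taken from 9 lists. Their counts stand beside those of all genes tested, of which 9.79% fell and 11.0% rose without fibronectin, and 13.2% fell and 14.4% rose with it. Of the RANK signaling genes, which carry the signal from the receptor to NF-kB, 14 of 16 were tested, with 1 lower and 1 higher without fibronectin and 1 lower with it. Traf6, the adaptor that RANK recruits, fell by 0.19 and by 0.17 on the log2 scale (adjusted p = 0.0357 and 0.0337), and Traf3, an inhibitor of the noncanonical branch, rose by 0.19 without fibronectin (adjusted p = 0.0489). Traf3 was at a log2 fold change of 0.04 on fibronectin (adjusted p = 0.65), and on uncoated plates without anti-ITGA5 replicate 2 it was 0.16 (adjusted p = 0.0535). The median log2 fold change of the list was -0.04 on either surface, beside 0.009 and -0.0038 for all genes tested. The decoy receptor osteoprotegerin (Tnfrsf11b) had at most 2 counts in a library. Of 4 genes tested of the CSF-1 axis, only the adaptor Grb2 fell, by 0.19 and 0.23. The CSF-1 receptor gene Csf1r had log2 fold changes of -0.12 (adjusted p = 0.202) and -0.02 (adjusted p = 0.818).

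In ITAM co-stimulation, where Trem2 and Tyrobp themselves act, 15 of 16 genes were tested. Without fibronectin 3 fell and 2 rose, and with fibronectin 4 fell and 3 rose, with medians of -0.07 and 0.0065. In either direction, 20.8% and 27.6% of all genes passed. Syk, the kinase that docks on phosphorylated ITAMs, fell by 0.17 and 0.24 (adjusted p = 0.0389 and 0.00128). Cd300lb, another receptor that can pair with TYROBP, fell by 0.20 and 0.26. Clec5a, a lectin receptor that also uses TYROBP, rose by 0.40 and 0.31 (adjusted p = 0.00114 and 0.00235), and the scaffold Lcp2 (SLP-76) rose by 0.24 and 0.27. Receptors that share the adaptor thus moved in either direction.

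The relatives of Trem2 were lower where they passed the test. All 5 genes of the TREM family were tested, and 3 fell on each surface by edgeR, where 9.79% and 13.2% of all genes fell, with median log2 fold changes of -0.46 and -0.66. Treml2 was at 3.55 ± 0.182 FPKM in IgG and 1.62 ± 0.104 FPKM in anti-ITGA5 without fibronectin, and at 3.93 ± 0.621 and 1.96 ± 0.611 FPKM with it. It fell by 1.12 and by 1.01 on the log2 scale (adjusted p = 2.8e-05 and 0.00119). Treml1 fell by 0.46 and 0.66, Trem1, which amplifies inflammatory signals through TYROBP, fell by 0.77 without fibronectin, and Treml4 fell by 1.06 with it. Trem1 did not pass with fibronectin, nor Treml4 without it. No gene of the family passed for the interaction, as 0.0223% of all genes did, so neither is shown to differ between the surfaces. Trem3 passed on neither surface, with log2 fold changes of -0.42 (adjusted p = 0.351) and 0.18 (adjusted p = 0.653).

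Among 18 transcription factors of osteoclast formation, all tested, 3 fell without fibronectin and 8 with it, beside 9.79% and 13.2% of all genes. Fos, the AP-1 subunit that osteoclast formation requires, was at 13.6 ± 1.91 and 9.01 ± 1.39 FPKM without fibronectin and at 16.8 ± 1.16 and 9.04 ± 1.49 FPKM with it. It fell by 0.58 and 0.90 on the log2 scale (adjusted p = 0.00705 and 4.8e-05). Junb fell by 0.42 and 0.38, and Mitf, which acts on Acp5, Ctsk and Oscar with its relatives, fell by 0.26 and 0.36 (adjusted p = 0.0114 and 0.00136). Tfeb, a lysosomal regulator of the same family as Mitf, fell by 0.42 with fibronectin. On uncoated plates Tfeb did not pass with all libraries, and without anti-ITGA5 replicate 2 it was at -0.32 (adjusted p = 0.0099 by edgeR). The list medians were -0.09 and -0.12.

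Of 11 genes that restrain osteoclast formation, all tested, 5 fell without fibronectin and 6 with it, beside the same 9.79% and 13.2% of all genes, with medians of -0.28 and -0.19. Irf8, a transcription factor that opposes osteoclast formation, fell by 0.34 and 0.30 (adjusted p = 0.00298 and 0.002 by edgeR), the inhibitory receptor Pirb by 0.35 and 0.38, and the repressor Bcl6 by 0.28 and 0.19.

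Of the attachment and bone resorption machinery, 17 of 19 genes were tested, and 7 fell and 1 rose on each surface, with medians of -0.20 and -0.17. Of all genes, 9.79% fell and 11.0% rose without fibronectin and 13.2% and 14.4% with it. Mmp9, a gelatinase of osteoclasts and of activated macrophages, changed most. It was at 7.79 ± 0.456 and 2.05 ± 0.516 FPKM in IgG and anti-ITGA5 without fibronectin and at 8.94 ± 0.475 and 3.58 ± 0.241 FPKM with it, and it fell by 1.90 and 1.32 on the log2 scale (adjusted p = 1.5e-05 and 1.2e-06). Tcirg1, the a3 subunit of the osteoclast proton pump, fell by 0.42 and 0.44, the lysosomal protease Ctsl by 0.46 and 0.39, and Gpnmb by 0.28 and 0.35. Itgb3, the β3 integrin chain of the osteoclast vitronectin receptor, had log2 fold changes of -0.20 (adjusted p = 0.45) and -0.34 (adjusted p = 0.0687). Car2, the carbonic anhydrase that supplies protons, had at most 10 counts in a library. In IgG, fibronectin raised Gpnmb by 0.21 (adjusted p = 0.0178), the only gene of this list to pass for the coating.

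For the other V-ATPase subunits, 16 genes tested, 2 fell and 1 rose without fibronectin (9.79% and 11.0% of all genes), and 5 fell and 1 rose with it (13.2% and 14.4%). The gene that rose was Atp6v0d1, the ubiquitous counterpart of Atp6v0d2, by 0.24 and 0.21 (adjusted p = 0.0137 and 0.00272). Its level was 86.0 ± 2.02 and 101 ± 7.43 FPKM without fibronectin and 92.5 ± 1.63 and 107 ± 4.09 FPKM with it, far above that of Atp6v0d2. Atp6v1a and Atp6v1b2, which form the catalytic head of the pump, fell by 0.25 and 0.25 without fibronectin and by 0.24 and 0.20 with it. Atp6v1f fell by 0.25 with fibronectin.

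Of 22 cell fusion genes tested of 24, 4 fell and 3 rose without fibronectin (9.79% and 11.0% of all genes), and 5 fell and 4 rose with it (13.2% and 14.4%), with medians of -0.02 and -0.0006. Ccl2, a chemokine that promotes macrophage fusion, rose by 0.45 and 0.56 (adjusted p = 0.00185 and 2e-05), and Sh3pxd2a, the podosome scaffold TKS5, rose by 0.42 and 0.44. Adam8 fell by 0.36 and 0.33, and Itgam, the αM chain of Mac-1, by 0.47 and 0.31. Cdh1 and Adam12, adhesion and protease genes linked to fusion in other settings, had at most 20 and 3 counts in a library. In IgG, fibronectin raised the tetraspanin Cd9 by 0.17 (adjusted p = 0.0433).

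Without anti-ITGA5 replicate 2, the 9 lists held 38 lower and 10 higher genes on uncoated plates by edgeR, against 29 and 8 with it. All 29 lower genes and 7 of the 8 higher genes passed in both fits, and Traf3 was the exception. The count of lower genes moved from 1 to 2 in RANK signaling, from 1 to 2 in the CSF-1 axis, from 3 to 5 in ITAM co-stimulation and from 3 to 5 among the transcription factors. Among the genes that restrain osteoclast formation, 2 passed as higher without that library and 0 with it.

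**Figure D4:**
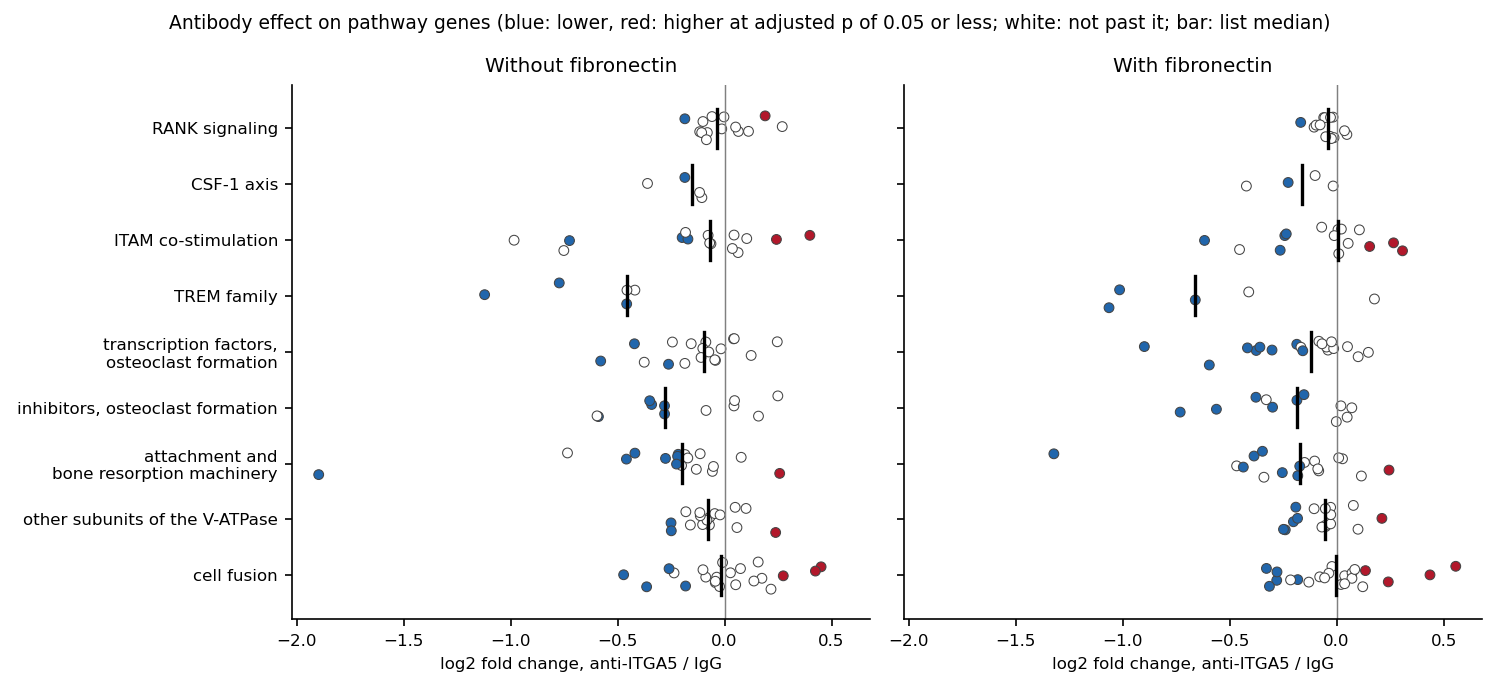
Fitted log2 fold changes of edgeR upon ITGA5 neutralization (x axis, linear) of the tested genes of 9 pathway lists (y axis), without fibronectin (left) and with fibronectin (right); blue and red circles have an adjusted p of 0.05 or less, bars are list medians, and the vertical spread within a row has no meaning. The lowest value in each panel is Mmp9, at -1.90 and -1.32, the TREM family has the lowest medians, at -0.46 and -0.66.

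Marker genes of other cell states moved with the antibody as well. Of 8 macrophage markers, 4 fell and 1 rose on each surface (of all genes, 9.79% and 11.0% without fibronectin and 13.2% and 14.4% with it), among them Lyz2, which fell by 0.51 and 0.46, and Cd14, which rose by 0.46 and 0.25. Of 7 proliferation genes, 5 rose on each surface, and their summed level was 366 to 424 FPKM in IgG and 532 to 583 FPKM in anti-ITGA5 without fibronectin, and 378 to 443 and 515 to 614 FPKM with it. Of 7 further osteoclast markers 4 were tested, and only Mmp9 fell. Their summed level was 51.1 to 54.7 FPKM in IgG and 44.0 to 46.3 FPKM in anti-ITGA5 without fibronectin, and 54.9 to 57.6 and 46.6 to 48.7 FPKM with it. Most of that difference is the fall of Mmp9 given above. Of 6 dendritic cell markers, 2 were tested without fibronectin and 1 with it, and Itgax, which macrophages also express, rose by 0.94 and 0.44 (adjusted p = 0.0123 and 0.0264). Their summed level was 1.00 to 1.42 FPKM in IgG and 1.68 to 2.81 FPKM in anti-ITGA5 without fibronectin, and 1.66 to 1.89 and 2.12 to 2.80 FPKM with it. These sums separated the IgG from the anti-ITGA5 libraries on both surfaces, as Trem2 and Tyrobp did. Of 8 markers of neutrophils and granulocyte precursors, 2 were tested with fibronectin. Mpo fell by 0.94 there, which is a description, because it entered that test only through IgG with fibronectin. The sums of the 8 markers on fibronectin were 3.02 to 4.52 FPKM in IgG and 1.86 to 3.00 FPKM in anti-ITGA5. Without fibronectin 1 was tested and did not pass, and the sums overlapped. Without anti-ITGA5 replicate 2, 6 in place of 5 proliferation genes rose on uncoated plates, and the numbers of genes passing in the other marker lists were as given. The part of these markers in the changes of the members was not tested.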

How the data were processed

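RNA-seq was analysed in 12 libraries. Per the submitters' processing notes, the authors used TopHat2 2.0.9, HTSeq 0.6.1 and Cufflinks 2.1.1 with the mouse genome mm10 (GRCm38.p6). The authors deposited raw gene counts in one table and FPKM in another. The strand used in counting and the annotation release are not given in the sources used here. Gene models were read from GENCODE M21.

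Each comparison used its own 6 libraries, and the interaction used all 12. Differential expression was tested in R 4.3.3 with edgeR 4.0.16: filterByExpr (at its minimum count of 10 and minimum total of 15) removed low genes, TMM scaled the libraries, and p-values of the quasi-likelihood test were adjusted by Benjamini-Hochberg over all genes tested, with a threshold of 0.05. The standard error was the log2 fold change divided by the square root of F. Alternatives were DESeq2 1.42.0, limma 3.58.1 on log2 FPKM with a pseudocount of 1 or 0.1 and a mean of at least 0.5 FPKM, other scalings and filters, a replicate block and leaving out each library. FPKM are given as mean and SD. The fits were tested on simulated data. The members, lists and tests were chosen with earlier results of these data known. Named were all members and, of each list, up to 4 called genes with the smallest adjusted p in an antibody comparison, genes under 10 counts in every library whose role is named, and the 2 genes nearest in pattern to each called member. Genes named beyond these were chosen after their values were seen. One gene that this rule names is not reported here.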

Additional observations from a re-analysis of the deposited data

How the results depend on the processing

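For the members, 587 of the log2 fold changes under alternatives kept their direction and their side of the threshold over all comparisons, 10 passed newly, 9 were lost and 33 changed sign. In the antibody comparisons 218 of 237 kept both, and 3 changed sign. Those sign changes were of Atp6v0d2 with fibronectin, at 0.0045 with total counts in place of TMM and -0.15 to 0.11 without each library in turn. The number of members lower without fibronectin was 1. It was 2 when every gene with at least 1 count was tested or when all 12 libraries were fitted together, 0 with each limma fit, and 0 to 3 without each library. The cause was not tested.

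Over all genes, 1265 were lower and 1419 higher without fibronectin. With limma on log2(FPKM + 1) and no filter these were 536 and 684, and without each library 627 to 1842 and 846 to 1992. With fibronectin, 1699 were lower and 1866 higher, 846 and 1025 with that limma fit, and 1113 to 1907 lower without each library. For the coating in IgG, 16 were lower and 42 higher. DESeq2 gave 41 and 100, the fit of every gene with at least 1 count 66 and 175 with 1 member higher, and the fit of all 12 libraries 1 and 10. Limma gave 2 and 5 with a pseudocount of 1, 0 and 5 with 0.1, and 9 and 8 with no filter. Without each library the counts were 3 to 24 lower and 6 to 77 higher. For the coating in anti-ITGA5, edgeR's test gave 0, with 461 genes at an unadjusted p under 0.05. DESeq2 gave 2 lower and 3 higher, every gene with at least 1 count gave 214 and 113, all 12 libraries gave 1 and 1, and leaving out a library gave 0 to 4 in either direction. The interaction, with 3 lower and 0 higher and 386 genes at an unadjusted p under 0.05, gave 1 higher with DESeq2, 32 lower and 33 higher with every gene counted, 1 lower with limma with a filter, 3 higher without it, and 1 to 4 lower and 0 to 3 higher without each library.

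The labels do not tie a replicate number to a shared animal, batch or day, and not every pair correlated above 0.1, so the numbers were not taken to pair the samples. In 12 pairs of same-numbered samples the correlation of deviations was -0.0196 to 0.149, over 0.1 in 5, and in 10 of the 12 the same number gave the best match among the 3 libraries of the other group, which is a hint from the data and not from the design. With the replicate block, 2 members were higher for the coating in IgG, Acp5 (adjusted p = 0.0191) and Atp6v0d2 (adjusted p = 0.0334 by edgeR), with 133 genes lower and 283 higher in all. In anti-ITGA5 the block gave 2 genes lower, and Ctsk passed for the antibody with fibronectin (-0.52, adjusted p = 0.0161).

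Values near 0 changed sign. For the coating in IgG, Trem2 was at -0.016 with total counts and -0.031 to 0.054 without each library. For the coating in anti-ITGA5, total counts gave -0.0057 for Trem2 and -0.0026 for Tyrobp, and leaving out a library gave -0.026 to 0.035 for Trem2, -0.083 to 0.076 for Tyrobp, -0.093 to 0.096 for Tnfrsf11a and -0.29 to 0.35 for Acp5. The interaction of Ctsk was -0.014 with limma on log2(FPKM + 1), with or without the filter. Without each library it was -0.25 to 0.24 for Ctsk, -0.042 to 0.14 for Tnfrsf11a and -0.044 to 0.045 for Trem2. On log2(FPKM + 1), the gene nearest to Acp5 was Gpc1, at 0.118. Depth limited Dcstamp, Ocstamp and Oscar, at no more than 15 counts in a library.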
